A study of Mus musculus with 7 samples.

Results

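The immediate early and stress transcription genes described here are *Fos*, *Fosb*, *Jun*, *Junb*, *Jund*, *Egr1*, *Ier2*, *Ier3*, *Dusp1* and *Atf3*, 10 of the 30406 genes counted in every cell of a mouse seminal vesicle series. They were chosen by name, and all 10 were present in both gene references used for counting. The series profiled dissociated seminal vesicle tissue of 23 male wild type mice with droplet-based single-cell RNA sequencing, in which each RNA molecule carries a UMI (unique molecular identifier) and is counted once. UMIs of each member were summed per mouse and cell class, and a sum was kept where it held at least 10 cells. Levels are given as CPM, the UMIs of a gene per 1000000 UMIs outside the *Svs* genes, because the *Svs* genes (*Svs1*, *Svs2*, *Svs3a*, *Svs3b*, *Svs4*, *Svs5* and *Svs6*, which encode the bulk secretory proteins of seminal fluid) take up most of the RNA of a secretory cell.

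The aging pool held 10 C57BL/6J mice on a chow diet that were tagged and run together as 1 library, 2 of them 3 months old, 4 of 20 months and 4 of 28 months, and at each of the later ages 2 had received transient rapamycin. The diet pool held 8 tagged FVB/NJ mice of 3 months in 1 library, with 2 mice on a control diet, 2 under caloric restriction, 2 on a high fat diet and 2 on a low protein diet. In 5 libraries a single FVB/NJ mouse was run. For 3 of these (the diet single-mouse libraries) the mouse was 3 months old and ate the control, the high fat or the low protein diet, and the remaining libraries came from a young (3 months) and an old (18 months) individual, both on the control diet. Each pool was 1 library, so that a difference between a pool and the single-mouse libraries cannot be told apart from a difference between libraries. P-values cover the spread between mice only.

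Immediate early genes are transcribed within minutes of a stimulus, without new protein synthesis, by transcription factors already present in the cell. Growth factors, cytokines, mechanical strain and cell damage reach them through MAP kinases and cyclic AMP, and their RNAs are short-lived. They are also widely known to respond to the enzymatic dissociation that precedes single-cell capture, in many tissues. *Fos*, *Fosb*, *Jun*, *Junb* and *Jund* encode subunits of the dimeric transcription factor AP-1, *Egr1* a zinc finger transcription factor, and *Atf3* a member of the ATF/CREB family that is induced by many stresses. *Ier2* and *Ier3* are immediate early response genes, the latter with a role in cell survival, and *Dusp1* encodes a phosphatase that switches off MAP kinases.

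Short stretches of promoter sequence are given for the 5 members in which a cyclic AMP response element (CRE), its core or a variant of it stood on the gene's own strand, because the CRE is the sequence that the ATF/CREB family, *Atf3* included, binds. The stretches were taken from RefSeq, in build GRCm38.p6, and are written 5′ to 3′ on the strand of the gene, with the motif in capitals. They lay at chr12:85473794-85473858 on the plus strand for *Fos*, at chr7:19310071-19310135 on the minus strand for *Fosb*, at chr4:95052230-95052297 on the minus strand for *Jun*, at chr8:84978820-84978884 on the minus strand for *Junb*, and at chr17:26508578-26508645 on the minus strand for *Dusp1*.
Fos: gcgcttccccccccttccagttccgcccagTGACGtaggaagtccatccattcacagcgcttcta
Fosb: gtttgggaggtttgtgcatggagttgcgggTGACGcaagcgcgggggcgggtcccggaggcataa
Jun: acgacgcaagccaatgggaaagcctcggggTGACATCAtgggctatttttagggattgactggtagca
Junb: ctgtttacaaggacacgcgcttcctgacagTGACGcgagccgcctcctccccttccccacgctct
Dusp1: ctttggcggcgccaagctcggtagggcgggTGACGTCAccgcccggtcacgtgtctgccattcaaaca
Within the 250 bases before the start of a gene, and on both strands, the core TGACG was found in 5 of the 8 member promoters searched (*Fos*, *Fosb*, *Junb*, *Dusp1* and *Atf3*) and in 17.8% of all 32851 promoters. The full palindrome TGACGTCA, which contains TGACG, was found in *Dusp1* and in 1.55% of promoters, and the variant TGACATCA in *Jun* and in 2.93%. The TATA box TATAAA was found in *Fos* and in 12.4% of promoters, and the AP-1 site TGANTCA in none of the 8 and in 6.75% of all. The CArG box, bound by serum response factor, was found in none of the 8 and in 1.47% of all promoters. *Egr1* and *Ier2* were not searched, nor was any sequence beyond the 250 bases, so absence here does not mean that a member lacks the motif. A match is a description of letters, not of binding, and the motifs were chosen with the sequences in view. In GENCODE vM21, *Jun* overlaps the antisense gene *Junos*, *Junb* overlaps *Prdx2*, *Jund* overlaps the antisense gene *Gm11175*, and *Dusp1* overlaps *Ergic1*, each on the opposite strand, besides small RNAs and pseudogenes that overlap *Dusp1* and *Atf3*. How the counting treated strand is not given in the sources used here.

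Of 53352 deposited cells, 40306 were kept, and markers placed 9810 in the secretory, 6479 in the basal, 3476 in the fibroblast, 5569 in the smooth muscle, 1856 in the endothelial and 2124 in the immune class. A secretory cell had at least 0.25 of its UMIs on the *Svs* genes, a basal cell at least 2 UMIs of *Krt5*, *Krt14* and *Krt15*, a fibroblast at least 2 of *Col1a1* and *Col1a2*, and the smooth muscle, endothelial and immune cells at least 1 of *Myh11*, *Pecam1* and *Ptprc*. A cell passing the secretory gate was secretory whatever else it passed. One passing the fibroblast and smooth muscle gates alone was smooth muscle. Another 1129 cells passed several gates in other ways and 9863 none. Kept UMIs per mouse ran from 1704713 to 14720617 in the aging pool, from 971402 to 9806347 in the diet pool, from 35661149 to 46326504 in the diet single-mouse libraries and from 24806120 to 36543978 in the young and old individual. Markers that had no part in the gates were highest in their own class in every mouse for the secretory (21 mice), basal (22), fibroblast (23), smooth muscle (16) and endothelial (23) class. For the immune class this held in 2 of 23 mice, because *Cd52* was higher in secretory cells, and in 23 of 23 when *Cd52* was left out, a choice made after its values were seen. The young and the old individual held no secretory cells, and all 5 epididymis markers (*Lcn8*, *Lcn9*, *Gpx5*, *Crisp1* and *Rnase10*) were detected in each of their classes, with a summed level between 6445 and 25589 CPM. Their label is seminal vesicle. Ranges, fold changes between classes and correlations include them, and the comparison of classes was repeated without them. No pair of libraries shared more than 0.380% of cell barcodes.

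Endothelial cells, fibroblasts and, outside the diet single-mouse libraries, smooth muscle cells had higher mean shares of UMIs on these genes than basal, secretory and immune cells. The 10 members together made up 2.51% ± 0.620 (SD, n = 10) of UMIs outside the *Svs* genes in endothelial cells of the aging pool and 1.85% ± 0.201 (SD, n = 10) in fibroblasts, against 0.840% ± 0.116 (SD, n = 10) in secretory and 0.850% ± 0.125 (SD, n = 10) in immune cells. Smooth muscle of the aging pool had 2.15% ± 0.419 (n = 3 mice), that of the young and old individual 2.32% ± 0.259 (n = 2) and that of the diet single-mouse libraries 0.833% ± 0.0811 (n = 3). The diet pool gave 2.56% ± 0.460 in endothelial cells, 2.16% ± 0.140 in fibroblasts, 1.75% ± 0.332 in smooth muscle, 1.23% ± 0.269 in basal, 0.933% ± 0.174 in immune and 0.797% ± 0.398 in secretory cells (SD, n = 8 mice each). In the 20 mice that had the other 5 classes (smooth muscle passed the minimum in 16 mice only), the endothelial class held the highest share in 14, the fibroblast class in 5 and the basal class in 1. The secretory class was lowest in 13 of these mice, the immune class in 6 and the basal class in 1. Within a mouse, the endothelial share was 2.97 times the secretory share (median of 20 mice, range 1.79 to 4.97) and the fibroblast share 2.30 times the immune share (range 1.63 to 3.38). With the *Svs* genes kept in the total, the secretory share fell to 0.316% ± 0.133 (SD, n = 21).

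**Figure D1:**
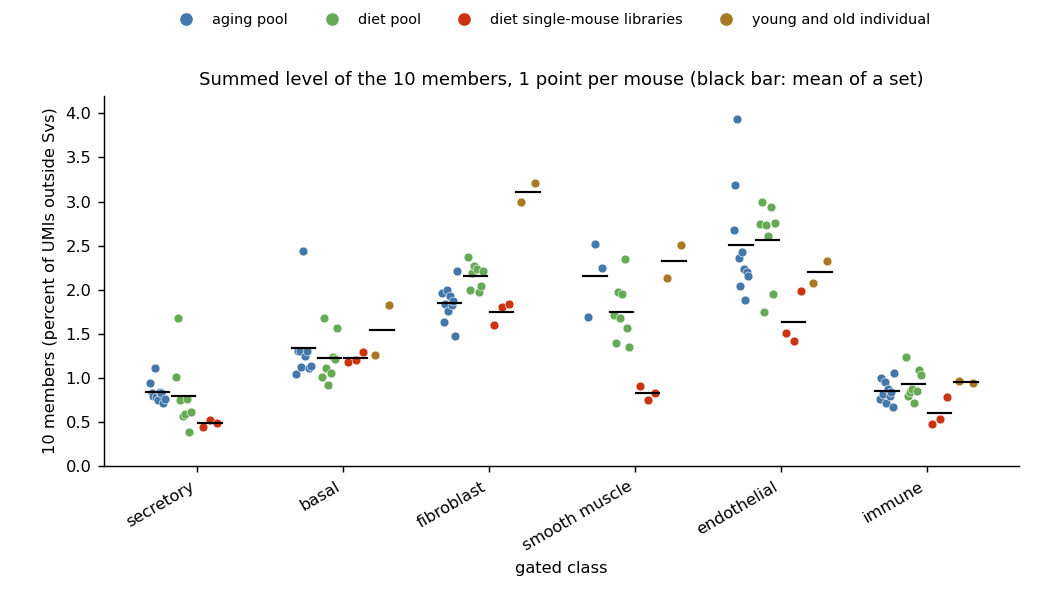
Share of UMIs outside the *Svs* genes that fell on the 10 members, in percent, for each cell class. Each point is 1 mouse, colored by its set, and bars mark the mean of a set. By the mean of a set, endothelial and fibroblast cells lie above basal, secretory and immune cells, and the 3 diet single-mouse libraries lie below every mouse of the diet pool in fibroblasts and smooth muscle.

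None of the 128 sums of a mouse and class was at 0 for any member, and the smallest held 4 UMIs. In droplets, free RNA from broken cells gives UMIs in cells that do not express a gene, so a low level is not evidence of expression in that class. When each cell was thinned to 1000 UMIs outside the *Svs* genes, 51.1% ± 3.8 of secretory cells in the diet single-mouse libraries had a *Fos* UMI (SD, n = 3; 8504 of 8519 cells were deep enough), and 6.9% ± 0.9 had a *Fosb* UMI. Without thinning these shares were 79.0% and 22.2%, at a median of 4483 UMIs per cell. In the endothelial cells of the diet pool, *Fosb* UMIs were found in 70.2% ± 6.9 of cells (SD, n = 8; 186 of 196 cells), and in 81.1% without thinning, at a median of 1943 UMIs. In the secretory cells of the diet pool the thinned *Fosb* share was 19.6% ± 6.9 (SD, n = 8), and in the diet single-mouse libraries it was 18.3% ± 5.4 in endothelial cells and 38.9% ± 12.5 in fibroblasts (SD, n = 3). In these libraries only 81 of 169 endothelial cells and 341 of 609 fibroblasts were deep enough. Without thinning the shares there were 13.2% and 36.3%. No class lacking *Fos* altogether was available as a reference.

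To ask which class holds more of each member within the same mouse, each class was compared with the mean of the other 5 in a single edgeR fit with the mouse as a block. Of 60 pairs of member and class, 23 were called higher and 21 lower at an adjusted p of 0.05. Most genes differ between cell classes, so these counts stand beside large backgrounds. In fibroblasts 8 members were higher and 1 lower, while 27.5% of all 9434 genes tested were higher and 29.3% lower. In endothelial cells 7 were higher and 0 lower (25.7% and 34.1% of all genes), and in immune cells 0 were higher and 8 lower (30.3% and 36.9%). In smooth muscle 3 were higher and 1 lower (24.1% and 23.8%), in basal cells 2 were higher and 6 lower (31.9% and 26%), and in secretory cells 3 were higher and 5 lower (38.1% and 37.3%). On plain CPM, without the scaling of the fit, the secretory split was 0 higher and 9 lower, the endothelial 10 and 0, the smooth muscle 5 and 0 and the basal 3 and 6. The median log2 fold change of the 10 members was 0.71 in fibroblasts and 0.69 in endothelial cells, against -0.07 and -0.18 for all genes, and -0.86 in immune cells against -0.11.

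The secretory class depends on the scaling more than any other. TMM, the scaling of the fit, gave secretory sums a factor of -0.98 on the log2 scale relative to the other classes, which raises every secretory fold change by that size over a comparison of plain CPM. Fold changes are on the TMM scale unless plain CPM is named, and the CPM values given beside them are not scaled further.

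Among the AP-1 subunits, *Fos* was highest in endothelial cells in 17 of the 20 mice with 5 classes. Its level there ran from 1165 to 9649.7 CPM (median 4344, n = 23), against 587 to 1669.7 CPM in immune cells (median 853, n = 23). The ranges overlap through the high fat individual alone, whose endothelial level was the lowest. *Fos* was 1.99-fold higher in endothelial cells than in the mean of the other classes (log2 0.99 ± 0.13 SE, adjusted p = 1.81e-11) and 2.27-fold lower in immune cells (log2 -1.18 ± 0.14, adjusted p = 3.16e-12). It was also higher in fibroblasts (log2 0.56) and smooth muscle (log2 0.42, a call lost with stricter marker gates, adjusted p = 0.0780) and lower in basal cells (log2 -0.95). In secretory cells it was not called with TMM (log2 0.16), whereas on plain CPM it was called lower (log2 -0.86).

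*Fosb*, the close relative of *Fos*, ran from 591 to 4556 CPM in fibroblasts (median 1524, n = 23) and from 59.3 to 480.4 CPM in secretory cells (median 222, n = 21), with no overlap. It was 2.20-fold higher in fibroblasts (log2 1.13 ± 0.10 SE, adjusted p = 1.6e-19) and 2.00-fold lower in secretory cells (log2 -1.002 ± 0.12, adjusted p = 6.25e-13). Immune cells were 2.62-fold lower (log2 -1.39 ± 0.12, adjusted p = 1.47e-19), and on plain CPM the secretory difference was the larger (log2 -1.98). Smooth muscle (log2 0.70) and endothelial cells (log2 0.68) were higher as well, the latter not with at least 30 cells per sum (adjusted p = 0.195), a minimum that also ended the endothelial calls of *Jun* (adjusted p = 0.128) and *Junb* (adjusted p = 0.101).

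*Jun*, the subunit that pairs with the Fos proteins, was highest in endothelial cells in 17 of 20 mice, with 1533 to 6296 CPM (median 2811, n = 23). It was higher there (log2 0.70 ± 0.12, adjusted p = 2.22e-07) and lower in immune cells (log2 -0.84 ± 0.13, adjusted p = 1.43e-08). Fibroblasts gave no call (log2 -0.04), and smooth muscle was lower (log2 -0.41, adjusted p = 0.0195), a call that 5 of 15 alternatives lost. Secretory cells were called higher with TMM (log2 0.34, adjusted p = 0.0112), but lower on plain CPM (log2 -0.63, adjusted p = 7.12e-06), so no direction is given for them.

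*Junb* and *Jund* encode the other Jun proteins. *Junb* ran from 2266 to 3619 CPM in fibroblasts (median 2795, n = 23) and from 208 to 2014 CPM in secretory cells (median 634, n = 21), and the ranges did not overlap. It was higher in fibroblasts (log2 0.79 ± 0.09, adjusted p = 3.02e-14) and endothelial cells (log2 0.46 ± 0.09, adjusted p = 3.67e-06) and lower in secretory (log2 -0.76 ± 0.10) and basal cells (log2 -0.66 ± 0.10). Immune cells, low for 8 other members, gave no call for *Junb* (log2 -0.03, interval of 2 SE -0.22 to 0.15). *Jund* was highest in fibroblasts in 14 of 20 mice, at 2056 to 6564 CPM (median 4727, n = 23), and was called higher in that class alone with TMM (log2 0.73 ± 0.08, adjusted p = 1.6e-15). On plain CPM it was called higher in smooth muscle (log2 0.47) and endothelial cells (log2 0.59) too, and lower in secretory cells (log2 -1.02).

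*Egr1*, the zinc finger factor, had the largest fold change of the 10 members in fibroblasts. There it ran from 1755 to 3946 CPM (median 2222, n = 23), above all values in immune cells (203 to 896 CPM, median 433, n = 23) and in secretory cells (141 to 1166 CPM, median 374, n = 21). It was 2.55-fold higher in fibroblasts (log2 1.35 ± 0.11 SE, adjusted p = 1.54e-22) and 2.62-fold lower in immune cells (log2 -1.39 ± 0.13, adjusted p = 7.1e-18). Endothelial (log2 0.76) and smooth muscle cells (log2 0.45) were higher, and basal (log2 -0.45) and secretory cells (log2 -0.72) lower.

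*Ier2* was highest in fibroblasts in 19 of 20 mice, at 771 to 1529.85 CPM (median 1138, n = 23), and 2.16-fold higher there (log2 1.11 ± 0.09, adjusted p = 2.28e-21). In immune cells it was lower (log2 -0.85 ± 0.10, adjusted p = 4.71e-12). Its secretory call turned with the scaling, from higher with TMM (log2 0.43) to lower on plain CPM (log2 -0.53). *Ier3* was spread over 3 classes, being highest in endothelial cells in 9 mice, in basal cells in 6 and in fibroblasts in 5. It was called higher in each of these classes (log2 0.77 ± 0.12, 0.86 ± 0.12 and 0.60 ± 0.12) and lower in secretory (log2 -0.77 ± 0.14) and immune cells (log2 -1.12 ± 0.13). *Dusp1* was highest in endothelial cells in 17 of 20 mice, at 665 to 2497 CPM (median 1079, n = 23), and 2.05-fold higher there (log2 1.03 ± 0.11, adjusted p = 1.54e-14). Basal cells (119 to 622 CPM, median 269, n = 22) lay below all endothelial values and were 2.11-fold lower (log2 -1.08 ± 0.13, adjusted p = 2.11e-12). Secretory cells (111 to 459 CPM, median 176, n = 21) were called lower as well (log2 -0.72), and fibroblasts higher (log2 0.69).

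*Atf3* went against most other members in fibroblasts and basal cells, but was lower in immune cells (log2 -0.87), as most of them were. It was highest in basal cells in 12 of 20 mice, at 1550 to 4429 CPM (median 2287, n = 22), and lower in fibroblasts (395 to 2197 CPM, median 989, n = 23), the class in which 8 other members were higher. Basal cells were 1.61-fold higher (log2 0.69 ± 0.11 SE, adjusted p = 4.9e-08) and fibroblasts 1.89-fold lower (log2 -0.92 ± 0.12, adjusted p = 9.06e-11). Secretory cells were called 2.24-fold higher with TMM (log2 1.16 ± 0.11, adjusted p = 9.17e-18), while on plain CPM the difference was not called (log2 0.18, adjusted p = 0.106). *Atf3* made up 22.4% ± 2.9 of the UMIs of all members in secretory cells (SD, n = 21), 19.1% ± 3.3 in basal cells (n = 22) and 4.9% ± 1.6 in fibroblasts (n = 23), a composition that does not depend on the scaling between classes.

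**Figure D2:**
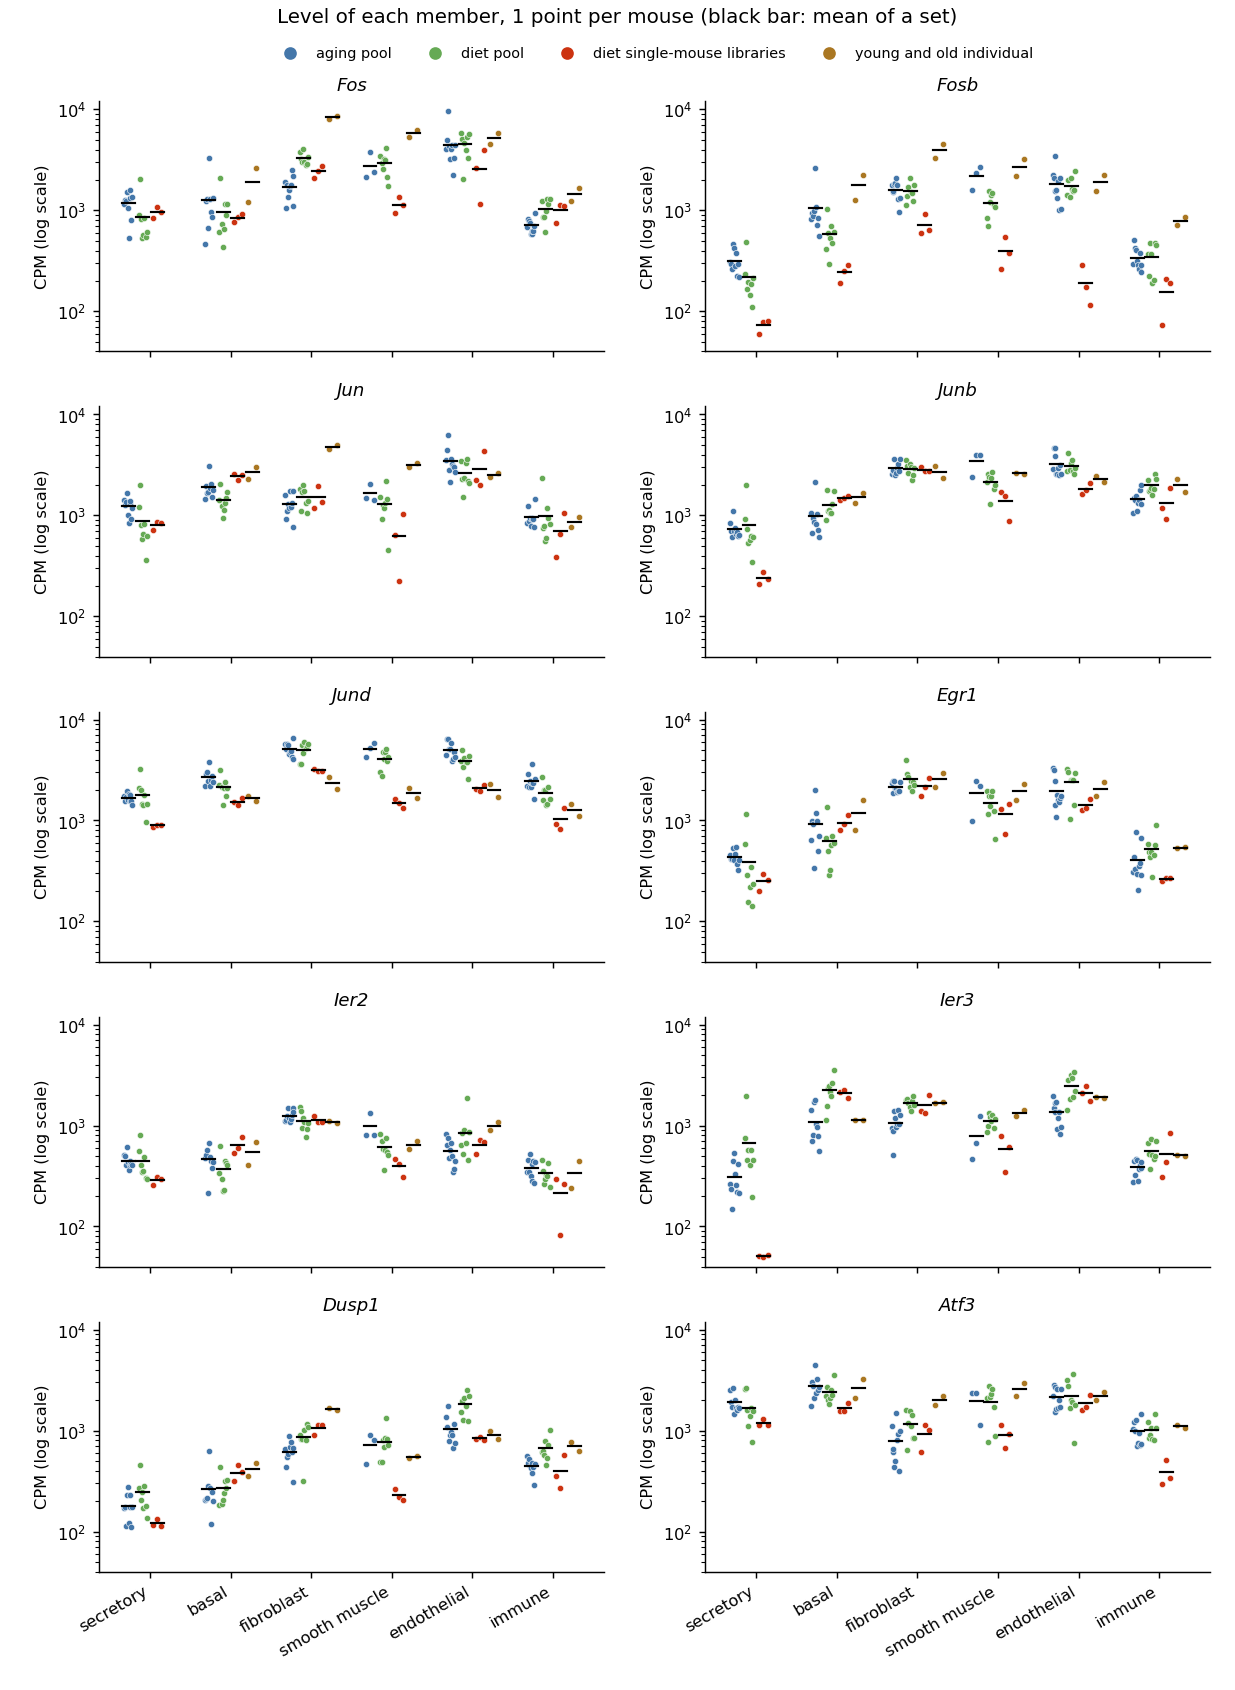
Level of each member in each cell class, in CPM outside the *Svs* genes on a log axis. Points are mice, colored by set, and black bars mark the mean of a set. *Egr1*, *Fosb* and *Junb* lie higher in fibroblasts than in secretory cells in every mouse, whereas *Atf3* lies lower in fibroblasts than in basal cells in each set by its mean.

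Within immune-gated cells, members differed between cells with a UMI of the myeloid genes *Csf1r* or *Adgre1* and cells with a UMI of the lymphocyte genes *Cd3d*, *Cd3e*, *Cd3g* or *Cd79a*. In the aging pool *Atf3* had 1454 ± 480 CPM in the former and 379 ± 227 in the latter (SD, n = 10 mice each), and *Ier3* 623 ± 127 and 142 ± 107 CPM. *Junb* and *Ier2* were in the other order, with 1193 ± 416 and 2085 ± 426 CPM for *Junb* and 279 ± 107 and 579.7 ± 104 CPM for *Ier2*. The diet pool gave the same order for *Atf3* (1545 ± 446 CPM, n = 8, and 408 ± 415 CPM, n = 7) and for *Ier2* (281 ± 145 and 430.3 ± 174 CPM), but not for *Junb* (2203 ± 480 and 2098 ± 478 CPM). These values were not tested.

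Other genes of the response followed the members in part. Of 17 other immediate early transcription factors, 16 were tested, of which 12 were higher and 2 lower in fibroblasts, led by *Egr2* (log2 1.62) and *Nr4a1* (log2 1.54), while 4 were higher and 10 lower in secretory cells. Of 13 feedback inhibitors, which end the response, 9 were higher and 2 lower in endothelial cells, led by *Spry4* (log2 3.49), a brake on growth factor signaling, and *Dusp2* (log2 3.38), a phosphatase of the *Dusp1* family. In immune cells *Dusp2* was higher (log2 4.11) and *Spry4* lower (log2 -3.32). The 11 heat shock genes gave 10 higher and 1 lower in immune cells, where 8 of the members were lower, with *Hsph1* higher (log2 1.22) and *Hspb1* lower (log2 -2.13). Of 11 genes of the integrated stress response tested, 8 were higher and 0 lower in secretory cells, including *Chac1* (log2 4.42) and *Asns* (log2 3.60), and 7 were higher and 1 lower in basal cells, the classes in which *Atf3* was called higher on the same TMM scale. In fibroblasts, where *Atf3* was lower, 1 was higher and 5 lower.

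Across the 128 sums, the level of *Fosb* was most like that of *Klf4* among 10748 genes compared (Spearman's rho 0.87 on log2 of CPM plus 1), *Egr1* also most like *Klf4* (rho 0.86), *Junb* like *Susd6* (0.87) and *Dusp1* like *Zfp36* (0.85). *Jund* was most like *Morf4l1* (rho 0.84), *Ier3* like *Sik1* (0.83), *Fos* like *Bambi* (0.77), *Jun* like *Luzp1* (0.76), *Ier2* like *Ddah2* (0.75) and *Atf3* like *Casz1* (0.69). Between members the highest rho values were 0.85 for *Egr1* and *Ier2* and 0.85 for *Junb* and *Dusp1*. The lowest was -0.06 for *Junb* and *Atf3*. Sums of 1 mouse share a library and its depth, and classes repeat in every mouse, so these values describe the table and are given without a test.

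To compare pools with single-mouse libraries at matched strain, age and diet, the 3 diet single-mouse libraries were set against the 6 mice of the diet pool on the same diets, with diet as a covariate and a fit per class. The members together lay lower in the single-mouse libraries, without overlap, in smooth muscle and fibroblasts. In smooth muscle they made up 0.916%, 0.754% and 0.828% of UMIs in the control, high fat and low protein individual, against 1.35% to 2.35% in the pool (median 1.81%, n = 6). In fibroblasts the single-mouse libraries had 1.60%, 1.80% and 1.84%, below the pool's range of 1.98% to 2.27% (median 2.20%). In endothelial cells they had 1.51%, 1.42% and 1.99% against 1.74% to 2.94% (median 2.67%), which overlap. Secretory, basal and immune sums overlapped as well, with basal sums of 1.18% to 1.299% against 0.922% to 1.57%.

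Across members and classes, 6 of 60 pairs were called higher in the single-mouse libraries and 27 lower, and in 21 pairs all 3 single-mouse libraries lay below all 6 pool mice, in 4 above, and in 35 the groups overlapped. No share over all genes is given for this overlap, so these counts describe the members and do not set them apart. *Fosb* and *Jund* were called lower in all 6 classes. In smooth muscle 0 members were higher and 6 lower, while 5.37% of the 2066 genes tested were higher and 8.03% lower. In endothelial cells 0 were higher and 4 lower (2.09% and 3.56% of 1628 genes), in immune cells 0 and 6, or 0 and 2 on plain CPM (2.56% and 6.82% of 2303), and in fibroblasts 0 and 3 (8.12% and 8.56% of 4309). In secretory cells 2 were higher and 4 lower (14.8% and 18.3% of 6324), and in basal cells 4 and 4 (15.7% and 16.4% of 6399). DESeq2 called 31 of the 60 pairs.

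**Figure D3:**
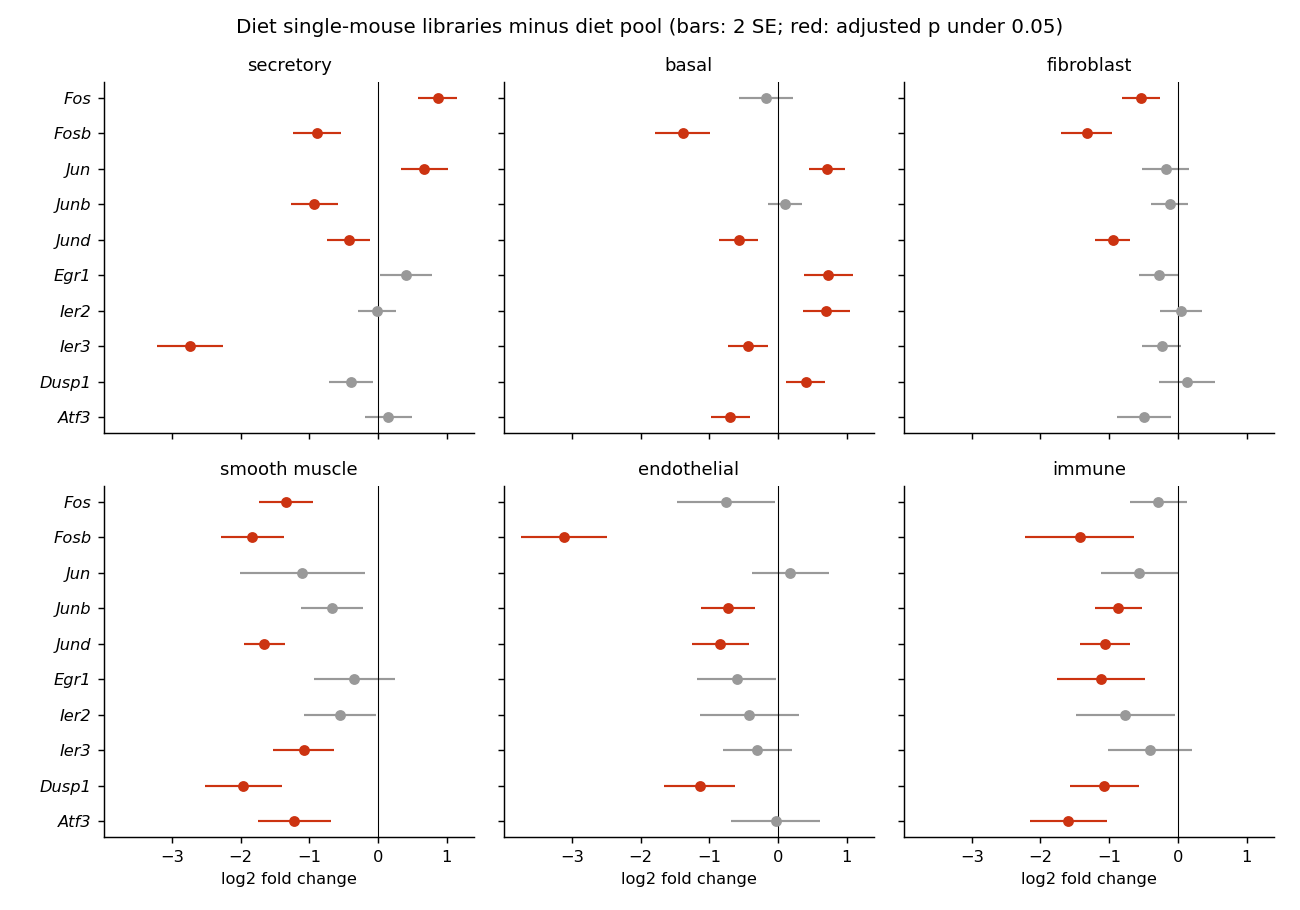
Log2 fold change of each member in each class between the 3 diet single-mouse libraries and the 6 diet pool mice on the same diets, with bars of 2 SE from the edgeR fit. Red points passed an adjusted p of 0.05 and gray points did not. *Fosb* and *Jund* lie below 0 in all 6 classes.

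*Fosb* had 284, 173 and 115 CPM in endothelial cells of the control, high fat and low protein individual, against 1357 to 2427 CPM in the pool (median 1608, n = 6). All single-mouse libraries were far below the pool. The difference was 8.66-fold (log2 -3.11 ± 0.32 SE, adjusted p = 2.34e-05). In smooth muscle the values were 263, 539 and 376 CPM against 1083 to 1540.2 CPM (median 1325), again without overlap (log2 -1.83 ± 0.23, adjusted p = 6.71e-05). Basal cells (log2 -1.39 ± 0.20), fibroblasts (log2 -1.33 ± 0.19) and secretory cells (log2 -0.89 ± 0.18) did not overlap either. Immune cells did (log2 -1.43 ± 0.40, adjusted p = 0.0374), and that call was lost under 4 of 15 alternatives and without any 1 of 5 mice (high fat pool mouse 2, either low protein pool mouse, the control and the low protein individual). Sums here rest on few cells: 77, 60 and 32 endothelial cells, 20, 23 and 21 smooth muscle cells and 46, 31 and 20 immune cells in the control, high fat and low protein individual.

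*Jund*, the AP-1 subunit with the steadiest expression in resting cells, had 1634, 1489 and 1334 CPM in smooth muscle of the single-mouse libraries against 3923 to 5089 CPM in the pool (median 4496, n = 6). The difference was 3.15-fold (log2 -1.65 ± 0.15 SE, adjusted p = 3.01e-06). In fibroblasts, values of 3201, 3116 and 3069 CPM stood against 4611 to 6048 CPM (median 5509), without overlap (log2 -0.95 ± 0.13, adjusted p = 1.85e-05). Immune cells (log2 -1.06 ± 0.18) and endothelial cells (log2 -0.84 ± 0.21) did not overlap, basal cells did (log2 -0.57 ± 0.14). The endothelial call was lost without any 1 of the single-mouse libraries or low protein pool mouse 2 and under 3 of 15 alternatives (adjusted p up to 0.195), and the basal call without the high fat individual. The secretory difference (867, 910.3 and 901 CPM against 960 to 2013 CPM, log2 -0.43 ± 0.16, adjusted p = 0.0468) lost its call under 6 of 15 alternatives, DESeq2 included, and without any 1 of 6 mice (control pool mouse 1, either high fat pool mouse, low protein pool mouse 2, the control and the high fat individual). *Gm11175*, the antisense gene that overlaps *Jund*, was in both gene references, whereas *Gm12703*, beside *Jun*, was in that of the pools only.

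**Figure D4:**
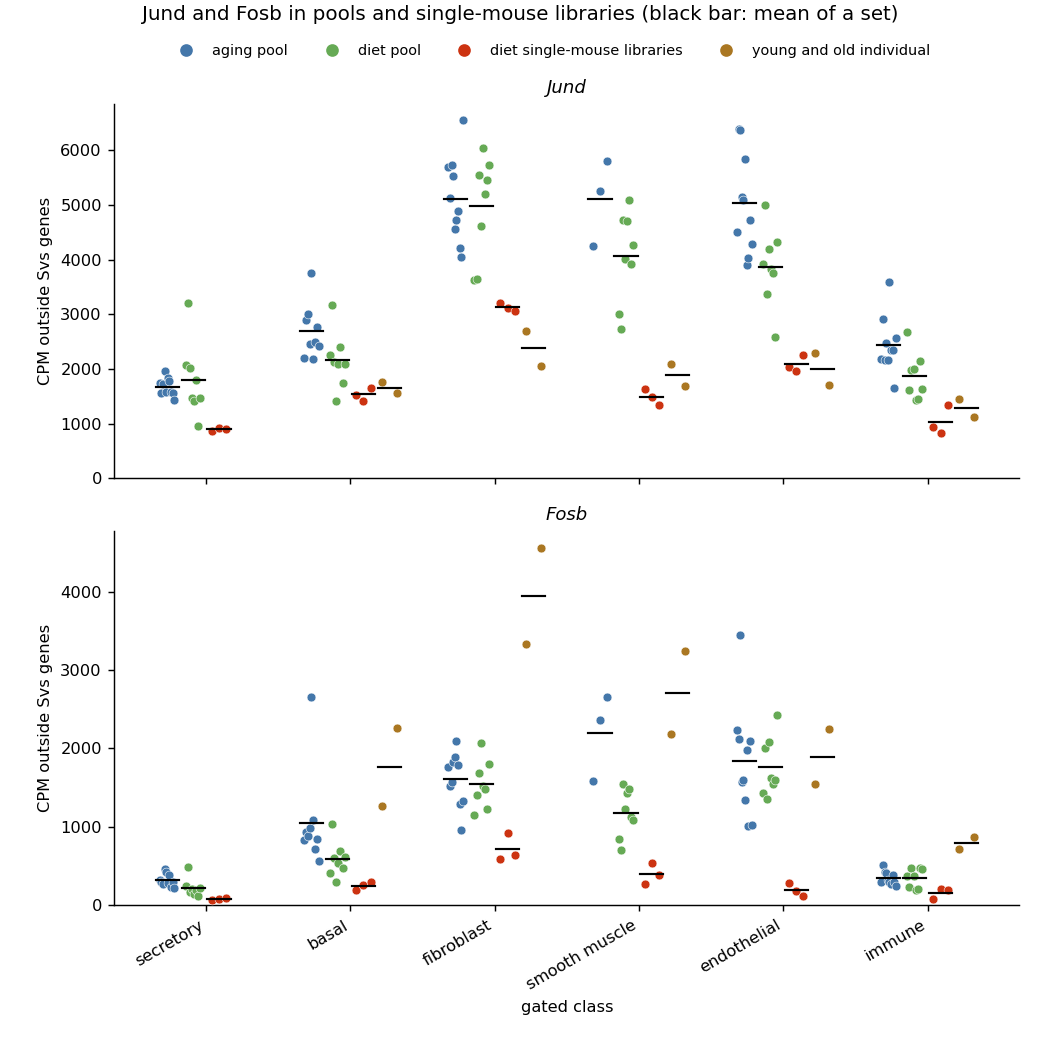
Level of *Jund* and *Fosb* in every mouse and class, in CPM outside the *Svs* genes, by set, with black bars at the mean of a set. *Jund* lies below all pool mice in every single-mouse library in secretory cells, fibroblasts, smooth muscle and endothelial cells. *Fosb* is higher in the young and the old individual than in the diet single-mouse libraries in every class that both have.

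*Fos* and *Jun* did not move as *Fosb* and *Jund* did. In secretory cells *Fos* had 847, 1085 and 957 CPM in the single-mouse libraries and 528 to 833 CPM in the pool (median 594, n = 6), all above the pool (log2 0.87 ± 0.14, adjusted p = 0.000189). In smooth muscle *Fos* was lower instead, with 934, 1363 and 1129 CPM against 1731 to 4134 CPM (log2 -1.35 ± 0.20, adjusted p = 0.000252). *Fos* was also lower in fibroblasts (log2 -0.54 ± 0.14, adjusted p = 0.0113), a call lost without the control individual and under 3 of 15 alternatives (adjusted p up to 0.0645). *Jun* was higher in basal cells, at 2589, 2229 and 2488 CPM against 937 to 1703 CPM (median 1285), without overlap (log2 0.71 ± 0.13, adjusted p = 0.000658). Its rise in secretory cells (log2 0.67 ± 0.17, adjusted p = 0.00665) overlapped with the pool and lost its call on plain CPM, with the caloric restriction mice included and no diet covariate, and without the low protein individual. *Junb* was lower in secretory cells, at 208, 274 and 235 CPM against 347 to 737 CPM (log2 -0.93 ± 0.17, adjusted p = 0.000536), in immune cells (log2 -0.87 ± 0.17, lost without the high fat individual and under 2 of 15 alternatives) and in endothelial cells (log2 -0.73 ± 0.19, adjusted p = 0.0404), the last call being lost without any 1 of the mice except control pool mouse 2 and low protein pool mouse 1, and under 3 of 15 alternatives.

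*Ier3* had the largest difference in secretory cells, with 51.2, 50.0 and 51.7 CPM in the single-mouse libraries against 198 to 567.7 CPM in the pool (median 452, n = 6). The single-mouse libraries were nearly identical and 6.69-fold lower (log2 -2.74 ± 0.24 SE, adjusted p = 3.11e-07). In smooth muscle *Ier3* was lower by a log2 of -1.09 ± 0.22 (adjusted p = 0.00475) and in basal cells by -0.44 ± 0.14 (adjusted p = 0.0295), the latter call being lost under 3 of 15 alternatives and without control pool mouse 1, the control or the low protein individual, whereas fibroblasts, endothelial and immune cells gave no call. *Dusp1* had 263, 222 and 205 CPM in smooth muscle against 692 to 1319 CPM (median 817), a 3.90-fold difference without overlap (log2 -1.96 ± 0.28, adjusted p = 0.000222). It was called lower in endothelial (log2 -1.14 ± 0.26) and immune cells (log2 -1.07 ± 0.25), both calls lost without any 1 of the 3 single-mouse libraries. With at least 30 cells per sum the endothelial call was lost too (adjusted p = 0.190), and the immune call was lost under 4 of 15 alternatives, with a log2 of -0.07 under stricter marker gates (adjusted p = 0.968). In basal cells it was called higher (log2 0.40 ± 0.14, adjusted p = 0.0415), a call lost under 6 of 15 alternatives and without any 1 of the mice except high fat pool mouse 2, low protein pool mouse 2 and the low protein individual.

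*Egr1* and *Ier2* were higher in basal cells of the single-mouse libraries. *Egr1* had 798, 924 and 1133 CPM there against 286 to 696 CPM in the pool (median 535, n = 6), and *Ier2* 540.1, 595 and 778 CPM against 222 to 441 CPM (median 352). Neither pair of ranges overlapped (log2 0.73 ± 0.18, adjusted p = 0.00564, and 0.70 ± 0.17, adjusted p = 0.00554), and both calls were lost when the caloric restriction mice were included without a diet covariate. In immune cells *Egr1* was lower (251, 268 and 266 CPM against 278 to 896 CPM, log2 -1.12 ± 0.32, adjusted p = 0.0438), but with stricter marker gates its direction turned (log2 0.68, adjusted p = 0.697), and the call was lost under 5 of 15 alternatives and without any 1 of the single-mouse libraries, control pool mouse 2, high fat pool mouse 2 or low protein pool mouse 2. *Atf3* was lower in immune cells, at 295, 516 and 342 CPM against 805 to 1463 CPM (median 978), without overlap (log2 -1.59 ± 0.28, adjusted p = 0.00274), a call lost with stricter marker gates (log2 -0.62, adjusted p = 0.601). It was also lower in smooth muscle (log2 -1.22 ± 0.26, adjusted p = 0.00702, lost under 1 of 14 alternatives and without the high fat individual) and basal cells (log2 -0.70 ± 0.14, adjusted p = 0.00158), and was not called in secretory cells (log2 0.15, interval of 2 SE -0.20 to 0.49).

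Several measures moved with the same contrast. *Svs* UMIs made up 1.78% of UMIs in fibroblasts of the diet single-mouse libraries by median and 0.322% in the diet pool, 1.51% and 0.274% in smooth muscle and 2.24% and 0.431% in endothelial cells. Mitochondrial UMIs were 4.22% and 1.99% in fibroblasts, 5.28% and 2.48% in smooth muscle and 1.45% and 0.968% in secretory cells. Median UMIs per cell outside the *Svs* genes were 1021 and 2632 in fibroblasts and 4483 and 8917 in secretory cells. Counting differed as well, with Cell Ranger 6.0.1 for the pools and 3.1.0 for the single-mouse libraries, each with its own gene reference. The part of any of these in the differences of the members was not tested. TMM factors of the single-mouse libraries differed from those of the pool by -0.33 on the log2 scale in secretory cells, 0.21 in basal, 0.16 in fibroblast, 0.09 in smooth muscle, 0.01 in endothelial and 0.30 in immune cells.

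In the related gene lists, secretory cells of the single-mouse libraries had 10 of 11 heat shock genes higher and 0 lower, led by *Hsp90aa1* (log2 1.81) and *Hspa1a* (log2 1.79), both chaperones. In the same cells 8 of 11 feedback inhibitors were lower and 1 higher, led by *Dusp6* (log2 -3.00) and *Tnfaip3* (log2 -2.42), and 7 of 15 other immediate early transcription factors were lower and 2 higher, led by *Fosl1* (log2 -3.45) and *Ier5* (log2 -2.45). In smooth muscle 4 of 11 heat shock genes were lower instead, with *Hspa1b* at a log2 of -2.53, and 4 of 12 other immediate early transcription factors were lower and 1 higher. Endothelial cells had 4 heat shock genes higher and 0 lower, and basal cells 1 higher and 5 lower.

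With the aging pool and the young and old individual added, 18 pool mice stood beside up to 5 single-mouse libraries, which then differed in strain, age, diet, rapamycin and tissue content as well. *Jund* in every single-mouse library lay below every pool mouse in 4 of 6 classes, a count given without the share over all genes. In fibroblasts it ran from 2056 to 3201 CPM in the 5 single-mouse libraries and from 3621 to 6564 CPM in 18 pool mice, and in smooth muscle from 1334 to 2084 CPM against 2731 to 5803 CPM in 11 pool mice. *Junb* did so in 2 classes (secretory and endothelial), and *Fosb* and *Ier3* in 1 (secretory, 3 single-mouse libraries). In immune cells *Fosb* overlapped within the diet single-mouse libraries already (206 CPM in the high fat individual, 192 CPM in the lowest pool mouse). In basal, fibroblast, smooth muscle and endothelial cells it overlapped only through the young and the old individual. These had 4556 and 3333 CPM in fibroblasts against 591 to 922 CPM in the diet single-mouse libraries. *Fos* was high in the same mice, with 8692 and 7966 CPM in fibroblasts, above every other mouse of the series. Without the young and the old individual, the comparison of classes kept 58 of 60 results on the same side of the threshold and in the same direction.

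To ask whether the members vary with secretory output, the secretory cells of each mouse were split at the median share of UMIs on *Svs* genes, in the 18 mice that left 10 or more cells on either side, and both groups were compared within mice. The *Svs* genes defined the split and were left out of the counts. *Fosb*, *Egr1* and *Ier3* were higher in lower-*Svs* cells and 0 members were lower, while 21.2% of the 6896 genes tested were higher and 16.5% lower. In the aging pool *Fosb* had 447 ± 118 CPM in lower-*Svs* and 219 ± 73.5 CPM in higher-*Svs* cells (SD, n = 9), in the diet pool 259.8 ± 69.9 and 104 ± 25.6 (n = 6), and in the diet single-mouse libraries 88.4 ± 15.3 and 54.6 ± 9.14 (n = 3). It was higher in lower-*Svs* cells in 18 of 18 mice, 1.63-fold with TMM (log2 0.70 ± 0.09 SE, adjusted p = 6.46e-07). *Egr1* had 554 ± 147 and 344 ± 40.1 CPM in the aging pool and was higher in 18 of 18 mice (log2 0.42 ± 0.08, adjusted p = 0.000262). *Ier3* was higher in 17 of 18 mice (log2 0.31 ± 0.11, adjusted p = 0.0308), a call lost with *Svs* genes kept in the total and in the pools alone.

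Scaling matters here as well. TMM gave lower-*Svs* cells a factor 0.37 higher on the log2 scale, and on plain CPM 8 members were called higher rather than 3. *Jund* was higher on plain CPM in 18 of 18 mice, *Jun* in 17, *Atf3* in 15, *Junb* in 14, *Fos* and *Ier2* in 13 and *Dusp1* in 12, yet none of these was called with TMM. *Atf3* had a log2 of -0.04 (interval of 2 SE -0.18 to 0.10) with TMM and 0.32 on plain CPM. Lower-*Svs* cells also had fewer UMIs per cell (a median of 24686 against 56954 in the aging pool, all genes counted) and a higher mitochondrial share (1.38% against 0.812%), and the part of either was not tested.

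**Figure D5:**
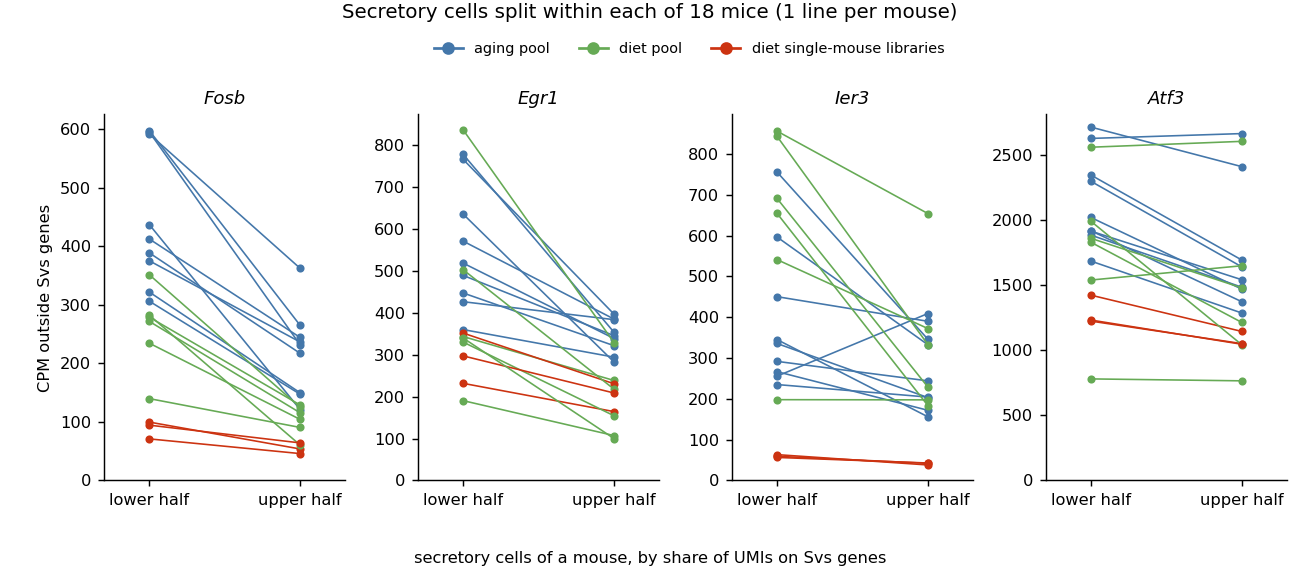
Level of *Fosb*, *Egr1*, *Ier3* and *Atf3* in plain CPM outside the *Svs* genes, in secretory cells below (left) and above (right) the median *Svs* share of their mouse. Each line is 1 of 18 mice, colored by set, and falls from left to right in 18 mice for *Fosb* and *Egr1*, in 17 for *Ier3* and in 15 for *Atf3*.

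Among related genes, 10 of 16 other immediate early transcription factors were higher in lower-*Svs* cells and 1 lower, led by *Egr3* (log2 1.82) and *Nr4a1* (log2 1.02), and 9 of 12 feedback inhibitors were higher and 0 lower, led by *Dusp6* (log2 1.05) and *Socs3* (log2 0.95). Heat shock genes gave 5 higher and 1 lower of 11. Of 9 genes of the integrated stress response 0 were higher and 4 lower, among them *Asns* (log2 -0.68) and *Chac1* (log2 -0.45).

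Age, the high fat diet and the low protein diet were tested in fibroblasts and immune cells, and 0 of 20 member and class pairs passed for each of them with edgeR. Caloric restriction was not compared with the control diet in any class. No other class, secretory cells included, was tested for age or diet. For age in the aging pool, 4 pairs had an unadjusted p under 0.05 and DESeq2 called 0, while 0.409% of 4401 genes in fibroblasts and 0% of 4652 genes in immune cells were called. *Fosb* in fibroblasts had 960.3 and 1328 CPM in the 3-month mice, 1764 and 1524 at 20 months, 1566 and 1826 at 20 months with rapamycin, 1883 and 2088 at 28 months, and 1789.6 and 1285 at 28 months with rapamycin. The 3-month mice were among the 3 lowest, and the trend was 0.03 ± 0.01 (SE) log2 per month, which did not pass (adjusted p = 0.264). *Egr1* in immune cells had the steepest negative trend, -0.04 ± 0.02 log2 per month (adjusted p = 0.552).

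For the high fat diet, 2 of 20 pairs had an unadjusted p under 0.05 and DESeq2 called 0, with 0.0434% of 4608 genes called in fibroblasts and 0% of 1847 in immune cells. For the low protein diet, 4 of 20 pairs had an unadjusted p under 0.05 and DESeq2 called 0, with 0.0653% of 4597 genes called in fibroblasts and 0% of 1686 in immune cells. *Dusp1* in fibroblasts had 834, 316 and 911 CPM in the 3 control mice, 1013, 806 and 1125 CPM on the high fat diet and 1172, 1074 and 1124 CPM on the low protein diet, the last of each being the single-mouse library. The low protein mice were above all control mice, but the difference did not pass (log2 0.69 ± 0.27, interval of 2 SE 0.15 to 1.24, adjusted p = 1.00), and for the high fat diet the ranges overlapped (log2 0.49 ± 0.23). Immune cells rested on few genes tested, and *Fos* there had a log2 of 0.61 ± 0.25 for the high fat and 0.68 ± 0.24 for the low protein diet, neither of which passed.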

How the data were processed

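Single cells of dissociated mouse seminal vesicle were sequenced on a droplet platform in 7 libraries from 23 mice. The deposited matrices hold raw UMI counts per gene and cell, made by the authors with Cell Ranger 6.0.1 for the pools and 3.1.0 for the single-mouse libraries on mm10; Seurat is also named in the submitters' processing notes. Pool mice were demultiplexed by the authors. Their conditions were taken from matrix names and the sample list of the study, and the tag list matched in 18 of 18 mice.

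Cells were kept from 500 genes and 200 UMIs upward, with no more than 10% of UMIs from mitochondrial genes, and doublets were not called. Secretory cells could pass other gates too, and smooth muscle cells could pass the fibroblast gate. Other cells passing several marker gates were left out of the classes. The count table was limited to 30406 shared genes, outside of which lay 0.0114% to 0.433% of UMIs per mouse. Counts were summed per mouse and class (at least 10 cells) and tested with edgeR 4.0.16 (quasi-likelihood, TMM, filterByExpr, R 4.3.3). P-values were adjusted by Benjamini and Hochberg's method across every gene in the fit, and the threshold was 0.05. The mouse was a block for classes and for the *Svs* split, and diet a covariate for single-mouse libraries against the pool. The tests were checked on simulated counts with known 4-fold changes, of which 100% were recovered in 4 comparisons and 57% for age, with 0% (age) to 8.68% (endothelial cells against other classes) of calls false. The simulation used 1 mean profile for all sums and a dispersion of 0.05, without mouse, library or class effects. It therefore does not cover smaller changes or the effect of scaling between classes. Alternatives were DESeq2 1.42.0, other scalings, filters, gates and cell minimums, and leaving out each mouse. Tables and figures were made with Python 3.11.15, pandas 2.3.3 and matplotlib 3.10.9.

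All members were named, as were at most 4 genes per list with the largest fold change among those that passed, and the genes most alike in level to each member. The members and lists were chosen with earlier results of these data known. Library totals differ widely between sets, so that sums of few cells carry the larger counting error.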

Additional observations from a re-analysis of the deposited data

Results flagged for a closer look

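Within sets of 8 to 10 mice, 121 groups of values were examined for a mouse far from the rest, of which 21 held one. The groups share mice and cells and mix diets, ages and rapamycin, so no number expected by chance is set beside this count. Caloric restriction pool mouse 2 stood above the other 7 diet pool mice in secretory cells, of which it had 19, for *Fos* (2041 CPM, the others at most 907), *Fosb* (480.4), *Junb* (2014), *Egr1* (1166), *Ier3* (1949) and *Dusp1* (459). In basal cells the same mouse was highest for *Fos* (2070.4 CPM) and *Egr1* (1357 CPM). In secretory cells, caloric restriction pool mouse 1, with 97 cells, came second for *Fos*, *Fosb*, *Junb*, *Egr1* and *Ier3*, but not for *Dusp1*. The members made up 1.01% of UMIs outside the *Svs* genes there and 1.68% in caloric restriction pool mouse 2. The diet pool mice on other diets had at most 0.761%. Caloric restriction was not tested. The 28-month mouse 2 stood above the rest of the aging pool in basal cells, of which it had 11, for the sum of all members (2.44% of UMIs, the others at most 1.31%), *Fos* (3289 CPM), *Fosb* (2655), *Jun* (3056), *Junb* (2124) and *Dusp1* (622).

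The other mice that stood apart did so for 1 or 2 genes. The 20-month rapamycin mouse 1 had 9649.7 CPM of *Fos* and 3444 CPM of *Fosb* in 13 endothelial cells, and the 20-month rapamycin mouse 2 had 1101 CPM of *Junb* in secretory cells. Control pool mouse 2 had 316 CPM of *Dusp1* in 24 fibroblasts, below all other diet pool mice. High fat pool mouse 2 had 1319 CPM of *Dusp1* in smooth muscle and 1869 CPM of *Ier2* in 25 endothelial cells, and caloric restriction pool mouse 1 had 2329 CPM of *Jun* in immune cells. The part of the small cell numbers in these values was not tested.

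For 2 genes the diet single-mouse libraries lay on opposite sides of the diet pool mice on the same diets in different classes. The difference between classes was not tested. *Fos* was above all of these pool mice in secretory cells, with a log2 ratio of mean CPM of 0.56, and below all of them in fibroblasts (-0.39) and smooth muscle (-1.30). *Egr1* was above all of these pool mice in basal cells (0.94) and below all of them in immune cells (-0.99). The caloric restriction mice are left out here. Caloric restriction pool mouse 2 lay above every diet single-mouse library for *Fos* in secretory cells (2041 CPM) and for *Egr1* in basal cells (1357 CPM).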

How the results depend on the processing

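With TMM replaced by plain CPM, an alternative added after the data were seen, as were a minimum of 1000 UMIs per cell and leaving out secretory cells that passed another gate, several directions turned: *Jun* (log2 -0.63), *Ier2* (-0.53) and *Fos* (-0.86) in secretory cells, *Ier2* in endothelial cells (0.35), and in the *Svs* split *Atf3* (0.32), *Ier2* (0.36) and *Junb* (0.30), where 8 members were then called. The turn follows from the scaling factors given with the results. With marker gates of 4 and 2 UMIs, *Egr1* in immune cells of single-mouse libraries turned to a log2 of 0.68. Against the diet pool, at least 30 cells per sum left 15 pairs lower of 50 tested, and including caloric restriction mice and dropping the diet covariate left 2 higher. Leaving out a mouse gave 18 to 27 lower and 5 to 7 higher pairs, and 0 to 0 for age and each diet tested. Without a filter on low counts 2 pairs were called for age. With *Svs* genes in the total, members were 0.316% of secretory UMIs. Unthinned, *Fos* was found in 83.2% of secretory, 73.4% of basal, 77.6% of smooth muscle and 55.6% of immune cells. The causes of the other changes were not tested. No paired analysis was possible because the labels give no replicate numbers, and the mouse was already a block where classes of 1 mouse were compared. Depth limits sums of few cells.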
